A study of Homo sapiens with 2 samples.

Results

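Transcript levels of 5 genes linked to DNA replication or DNA checkpoints were compared between MDA-MB-231 cells given a miR-544 antagomir and those given compound 1. The genes are TIPIN, CLSPN, CHEK2, FEN1 and E2F8. They were taken by symbol, from the probe-to-gene table, among 53617 transcript clusters (the array's unit, a group of probes for 1 transcript region). The 5 symbols had 7 clusters, and the clusters of all 14884 named genes were used for comparison. The set was put together with the differences between these arrays already known, so its differences describe the choice and carry no test.

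MDA-MB-231 is an established human breast cancer line of mesenchymal character that lacks hormone receptors. The antagomir is an oligonucleotide that blocks the microRNA miR-544, and compound 1 is a code name under which the study directs an agent at the same microRNA. Both were added 24 hours before 5 days at an oxygen level below 1%, and the design text mentions 3 samples and a pooling step ahead of the arrays. Each treatment has 1 array, with no array of untreated or normoxic cells used here, so no value below has a replicate error or a p-value. Treatment cannot be told apart from pool or hybridisation. The labels write miR-544 without a letter. RefSeq lists these mature forms of that name, shown with the seed (bases 2 to 8) in capitals because the labels do not say which form is meant and the seeds differ:
hsa-miR-544a: aUUCUGCAuuuuuagcaaguuc
hsa-miR-544b: aCCUGAGGuugugcauuucuaa

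At a replication fork the helicase unwinds DNA ahead of the polymerases. TIPIN and its partner TIMELESS form the fork protection complex, which travels with the helicase and keeps it coupled to synthesis. When a fork stalls, the kinase ATR is activated on the exposed single-stranded DNA, and CLSPN (claspin) holds the effector kinase CHK1 in place to be phosphorylated. CHEK2 encodes CHK2, the effector kinase of the checkpoint for broken DNA. FEN1 is the nuclease that trims the flaps between Okazaki fragments on the lagging strand. E2F8 is an atypical E2F factor that represses E2F target genes, many of them genes of DNA replication, late in S phase.

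Promoter stretches of 130 bases, from 120 before to 10 after a transcript start, are shown for the 4 genes that the RefSeq promoter table (GRCh38.p14) holds, because these genes are described together and E2F factors are known regulators of such promoters. Capitals mark matches, on either strand, to the E2F letters TTTGGCGC, TTTCGCGC, TTTGCCGC or TTTCCCGC and to the NF-Y box CCAAT. TIPIN has 2 listed starts.
TIPIN, start nearer to MAP2K1, chr15:66386708-66386837, minus strand: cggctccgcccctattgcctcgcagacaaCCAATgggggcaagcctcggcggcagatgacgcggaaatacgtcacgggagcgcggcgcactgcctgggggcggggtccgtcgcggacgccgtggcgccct
TIPIN, other start, chr15:66356676-66356805, minus strand: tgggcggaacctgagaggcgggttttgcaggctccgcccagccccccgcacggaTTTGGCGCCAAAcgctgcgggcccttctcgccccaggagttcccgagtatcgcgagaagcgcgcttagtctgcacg
CLSPN, chr1:35769969-35770098, minus strand: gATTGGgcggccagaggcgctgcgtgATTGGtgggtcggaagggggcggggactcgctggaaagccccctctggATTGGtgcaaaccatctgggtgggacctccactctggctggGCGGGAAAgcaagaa
CHEK2, chr22:28741811-28741940, minus strand: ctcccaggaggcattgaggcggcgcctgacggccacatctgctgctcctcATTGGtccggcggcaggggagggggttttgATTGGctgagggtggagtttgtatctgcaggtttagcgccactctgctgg
FEN1, chr11:61792791-61792920, plus strand: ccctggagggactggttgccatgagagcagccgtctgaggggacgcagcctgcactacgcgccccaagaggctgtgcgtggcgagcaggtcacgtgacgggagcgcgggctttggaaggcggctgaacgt

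Of the sequences shown, the E2F letters were found in TIPIN and CLSPN. At the other TIPIN start they lie in overlapping copies on both strands, from 66 to 55 bases before the start, and in CLSPN a match to TTTCCCGC on the opposite strand spans the start. The CCAAT box was found 3 times in the CLSPN stretch, 2 times in that of CHEK2 (and a further time upstream of it) and once at the start of TIPIN nearer to MAP2K1. The FEN1 stretch held neither set of letters, and no match says only that these letters are not in this window. Among all 35116 promoter windows of 300 bases in the table, 3.31% held an E2F match and 34.6% a CCAAT box. These windows are longer than the stretches shown, which raises the shares. Counted in the shorter upstream stretch of the same windows, 1.51% held an E2F match and 21.2% a CCAAT box. A match is a description of the letters and not evidence of binding.

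TIPIN was lower on the compound 1 array. Its only named cluster had a log2 level of 7.12 after the antagomir and 6.30 after compound 1, a difference of -0.82 on the log2 scale, or 1.77-fold. The compound 1 reading was 56.5% of the antagomir reading on the linear scale if the deposited log base is 2. Of 10887 measured genes (those whose higher reading reached the median cluster level, 5.60) TIPIN had the 7th lowest difference, and among the 9583 protein-coding ones it was number 2 from the lowest. Its rank among all genes depended on the filter, at 28 of 14884 with no filter on level, 4 with both arrays at the entry level and 2 with entry at the 75th percentile. Among the 2937 genes whose mean level lay within 0.5 of TIPIN's, 2 were as low, TIPIN included, and the central 95% of these genes lay between -0.43 and 0.38.

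CLSPN was not lower. Its measured cluster read 7.78 after the antagomir and 7.90 after compound 1, a difference of 0.12 (1.09-fold). This lies inside the range of -0.39 to 0.27 that held 95% of genes at a like level, of which 276 of 2311 were as high. A further CLSPN cluster read 3.30 and 3.51, too low to enter, with a difference of 0.21. CLSPN, which works at the same fork complex as TIPIN, thus did not share the lower reading of TIPIN.

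CHEK2 was lower on the compound 1 array in its measured cluster, at 6.581 against 7.002. The difference was -0.42 (1.34-fold), and 242 of the measured genes were as low or lower. At a like level 80 of 2890 genes were as low, so CHEK2 sat near the edge of the spread but just inside the range of 95% of these genes (-0.43 to 0.37). Its other cluster, under the entry level, read 4.23 after the antagomir and 4.39 after compound 1, a difference of 0.16 in the opposite direction. RefSeq lists pseudogenes named after CHEK2, and the one with a named cluster, CHEK2P2, read 5.10 and 5.17, too low to enter. Whether probes of the measured cluster also read RNA of such copies was not tested. Pseudogenes are also listed for TIPIN and FEN1, and none of these had a named cluster.

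FEN1 resembled CLSPN. It read 7.68 after the antagomir and 7.79 after compound 1, a difference of 0.11 (1.08-fold), and 332 of 2353 genes at a like level were as high. E2F8 read 9.64 and 9.15, a difference of -0.48 (1.40-fold). Of the 1359 genes at a like level 6 were as low, E2F8 included, against a 95% range of -0.32 to 0.21. By direction alone the set therefore divides into TIPIN, E2F8 and CHEK2, lower on the compound 1 array, and CLSPN and FEN1, slightly higher on it. Only TIPIN and E2F8 lay outside the 95% range of genes at a like level.

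**Figure D1:**
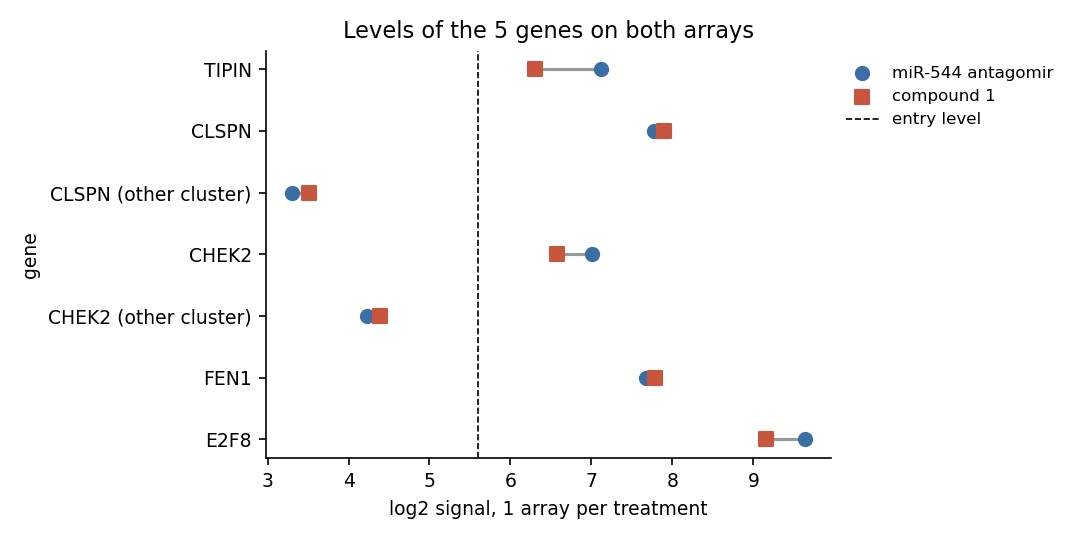
Log2 signal (x axis) of each of the 7 clusters of the 5 genes (y axis) after the antagomir (circles) and after compound 1 (squares), 1 array per treatment, with a grey line joining the readings of a cluster and a dashed line at the entry level of 5.60. TIPIN has the widest gap, from 7.12 to 6.30, and both further clusters lie to the left of the dashed line.

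A fold of 1.3 was used to count genes. Of all measured genes 3.27% were lower and 2.09% higher past 1.3-fold, and 57.2% were lower and 41.7% higher by any amount. TIPIN, CHEK2 and E2F8 were lower past 1.3-fold and 0 of the 5 genes were higher past it, but the set had been chosen on this contrast, so nothing is read from the count. The width of the differences depended on level, and their robust SD was 0.23 in decile 1 of level and 0.11 in decile 10. E2F8 was read in the part of the range where differences were narrow, while TIPIN and CHEK2 were read where they were wider.

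**Figure D2:**
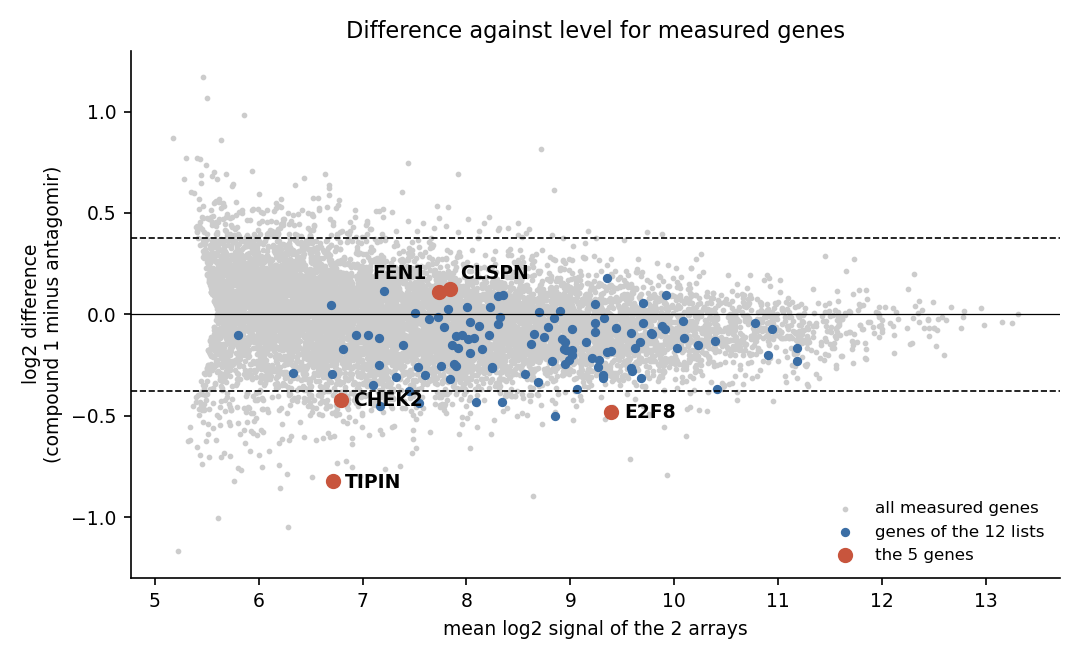
Log2 difference, compound 1 minus antagomir (y axis), against the mean log2 signal of the arrays (x axis) for measured genes (grey), the genes of the 12 lists (blue) and the 5 genes (red, named); dashed lines mark 1.3-fold and 1 gene lies beyond the plotted range. TIPIN at -0.82, E2F8 at -0.48 and CHEK2 at -0.42 lie below the lower dashed line, and CLSPN and FEN1 lie just above 0.

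The genes whose pair of readings was nearest to each of the 5, by the distance between the log2 levels on the 2 arrays, were named for a sense of what else looked alike. Nearest to E2F8 was TTK, the spindle checkpoint kinase gene, at 9.64 and 9.18 (distance 0.026), followed by ARHGAP18 and DDX46. Nearest to CHEK2 were UBE2V2, FZD3 and DYRK2, at distances of 0.028 to 0.054. TIPIN had no near match, since IPP, UQCC3 and CCDC18 were the nearest at 0.16 to 0.19. This restates its extreme rank, as the distance uses the same readings. CLSPN was nearest to FBRSL1, SCYL3 and FBXL6, and FEN1 to MAP3K10, ZNF862 and CMTR2, all at 0.021 or less. With 2 arrays a likeness of this kind rests on 2 readings per gene.

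Genes that neighbour the members on the chromosome were read separately and had no part in the choice. TIPIN and MAP2K1, the gene of the kinase MEK1, start 195 bases apart on opposite strands in the RefSeq table at their closest starts. The other listed TIPIN start, which holds the E2F letters, lies 30227 bases or more from a MAP2K1 start. Which of these starts the TIPIN cluster reads was not tested. MAP2K1 read 10.36 after the antagomir and 10.29 after compound 1, a difference of -0.070 (0.0021 after quantile normalization and 0.0028 after cyclic loess). CHEK2 and HSCB, a gene of iron-sulfur cluster assembly, start 212 bases apart on opposite strands at their closest starts, and HSCB read 6.52 and 6.55, a difference of 0.030. FEN1 and TMEM258 start 312 bases apart on opposite strands, and TMEM258 read 7.63 and 7.57, a difference of -0.066. In their own clusters MAP2K1 and HSCB did not show the lower reading of TIPIN and CHEK2. On the other sides, DIS3L next to TIPIN was at 0.015 (-0.014 after centring), TTC28 next to CHEK2 at 0.15, FADS1 next to FEN1 at -0.061 (0.015 after quantile normalization) and NAV2 next to E2F8 at -0.0056 (0.069 after quantile normalization). CSRP3, on the other side of E2F8, was too low to enter, and the neighbours of CLSPN had no named cluster.

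**Figure D3:**
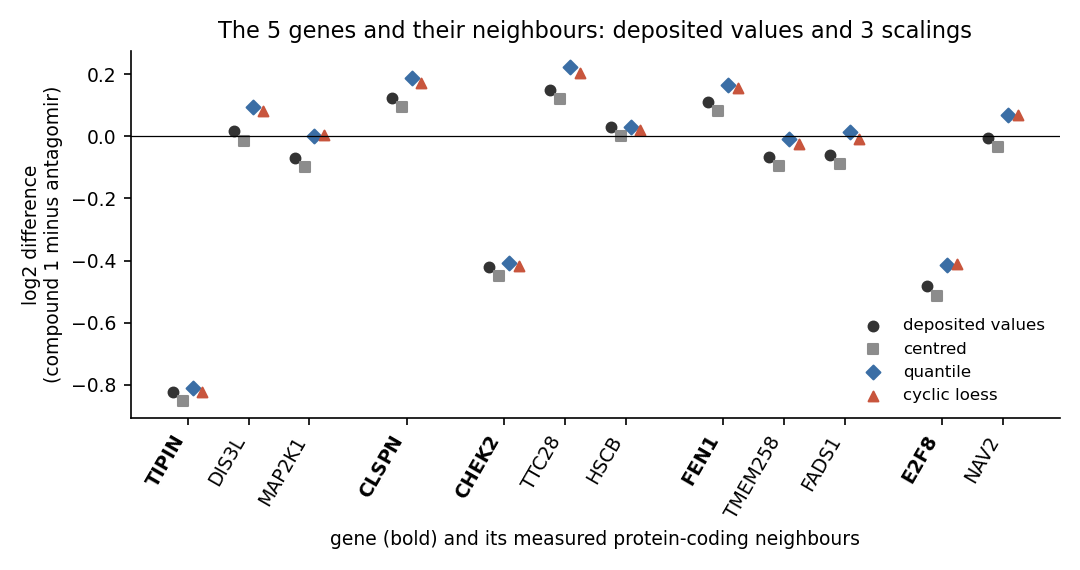
Log2 difference, compound 1 minus antagomir (y axis), of the 5 genes (bold) and of their measured protein-coding neighbours (x axis) in the deposited values and after centring, quantile normalization and cyclic loess. TIPIN stays between -0.85 and -0.81, whereas its neighbours DIS3L and MAP2K1 lie near 0 in every scaling shown.

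The rest of the fork and checkpoint machinery was described with 12 gene lists, some of which share genes. Together they hold 187 genes, of which 112 were measured. Of these 96 were lower and 16 higher on the compound 1 array (79 and 33 after quantile normalization, 81 and 31 after cyclic loess), against 57.2% lower among all measured genes (48.9% and 51.1% after these scalings). The median difference was -0.14, and it was -0.14 without the 5 members, against -0.035 for all measured genes. These comparisons are not at a like level, since the list genes were read higher (median 8.69 against 7.41). With entry at the 75th percentile 90 of 105 list genes and 67.1% of all measured genes were lower. Past 1.3-fold 9 of the 112 list genes were lower and 0 higher, against 3.27% lower and 2.09% higher among all measured genes. Without the 5 members, which were chosen on this contrast, 6 of 107 were lower past it. Besides TIPIN, CHEK2 and E2F8 the 9 were GEN1, MCM6, DBF4, RAD51AP1, RBL2 and CDCA7. After quantile normalization GEN1, RAD51AP1 and RBL2 were inside 1.3-fold, and 6 list genes remained lower past it. Differences were small: 22 of the 112 turned sign under at least 1 scaling, and 18 of these had been lower, none by more than 0.074. Whether fewer cells were replicating or each cell held less of these transcripts cannot be told apart in RNA of whole cultures. Some of these genes were already known to be lower on this array when the lists were made.

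Of the fork protection list all 4 genes were measured, and 3 were lower (2 after quantile normalization or cyclic loess). For this list and those below, the share lower among all measured genes was 57.2% (48.9% after quantile normalization and 51.1% after cyclic loess). TIMELESS, the binding partner of TIPIN, read 7.65 and 7.63, a difference of -0.023 that turned to 0.033 after quantile normalization, against -0.82 for TIPIN. WDHD1, which links the helicase to the polymerase that starts DNA chains, read 9.46 and 9.16, a difference of -0.30. TIMELESS and WDHD1 were named after their values were seen.

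In the ATR and CHK1 checkpoint list 13 of 14 measured genes were lower (11 after quantile normalization or cyclic loess), with a median of -0.17 and 0 past 1.3-fold. The largest differences were those of WEE1, the kinase that restrains entry into mitosis (-0.32), ATRIP, the binding partner of ATR (-0.29), RAD17, which loads the checkpoint clamp (-0.26), and ETAA1, an activator of ATR (-0.25). RAD1, a subunit of that clamp, was the highest at 0.091. CHEK1, the kinase gene that claspin serves and a gene named after its value was seen, read 9.26 and 9.21, a difference of -0.044 (0.020 after quantile normalization).

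The list for CHK2 and the checkpoint for broken DNA had 10 measured genes, 8 of them lower (7 after quantile normalization or cyclic loess), with a median of -0.18. CHEK2 was the only gene of the list past 1.3-fold, and PLK3, a stress-responsive kinase gene, was the highest at 0.12. Without CHEK2 the median was -0.17 and 0 genes were past 1.3-fold. Leaving out 1 of 10 genes can move a median only to an adjacent middle value.

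Among 7 measured genes of flap processing 5 were lower (6 after centring, 4 after quantile normalization or cyclic loess), with a median of -0.12. With so few genes these counts lay near the share lower among all measured genes (57.2%, or 48.9% and 51.1% after quantile normalization and cyclic loess). GEN1, a nuclease gene for branched DNA, was lower past 1.3-fold at 8.13 against 8.56, a difference of -0.43 (-0.36 after quantile normalization, which is inside 1.3-fold). FEN1 was the highest of this list. All 3 measured genes of the clamp list were lower, with PCNA, the sliding clamp on which FEN1 works, at -0.23, its binding partner PCLAF at -0.25 and DSCC1, of an alternative clamp loader, at -0.12. The replicative polymerase and primase list had 0 named clusters.

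Of 20 measured genes of origin licensing and the replicative helicase 18 were lower (19 after centring, 15 after quantile normalization or cyclic loess), with a median of -0.16. Past 1.3-fold were the helicase subunit MCM6, at 8.60 on the compound 1 array against 9.10 on the antagomir array (-0.50), and DBF4, the activating subunit of the CDC7 kinase, at 7.33 against 7.76 (-0.44). CDT1, which loads the helicase at origins, was the highest at 0.095. All 9 measured genes of fork remodelling and the Fanconi pathway were lower (7 under quantile normalization, 8 under cyclic loess), with a median of -0.10, and RAD51AP1, a gene of DNA repair by recombination, was past 1.3-fold at -0.38 (-0.33 after quantile normalization, which is inside it), and the ubiquitin-conjugating enzyme gene UBE2T was the highest at -0.058 (0.025 after quantile normalization). Of 10 measured cohesin genes 9 were lower (7 after quantile normalization or cyclic loess), with a median of -0.083. The cohesin subunits STAG1 and STAG2 were at -0.35 and -0.19, ESCO1, an enzyme that acetylates cohesin, was at -0.12, SMC1A was at -0.11, and WAPL, which releases cohesin from DNA, was the highest at 0.053.

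E2F8 had the lowest difference in the list of E2F, RB and DREAM factors. Of 16 measured genes 12 were lower (13 after centring, 8 after quantile normalization or cyclic loess), with a median of -0.11 that was -0.049 without E2F8. Among all measured genes 57.2% were lower, 48.9% after quantile normalization and 51.1% after cyclic loess. The count of 8 of 16 thus lay at the share of all genes under these scalings. E2F8 and RBL2, an RB family member of the DREAM repressor (7.88 against 8.31, or -0.43), were past 1.3-fold, the latter not after quantile normalization (-0.36). E2F7, the other atypical E2F, and the activator E2F1, both named after their values were seen, were at -0.042 (0.030 after quantile normalization) and 0.053. LIN37, a subunit shared by DREAM and its activating counterpart, was the highest at 0.18.

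Of 24 measured E2F target genes of S phase 19 were lower (20 after centring, 16 after quantile normalization or cyclic loess), with a median of -0.12. This list holds CLSPN, FEN1 and E2F8, and without them 18 of 21 were lower with a median of -0.13. CDCA7, a chromatin factor, was past 1.3-fold at 6.94 against 7.39 (-0.45), together with E2F8, while CLSPN was the highest of the list. Of 10 measured genes of nucleotide supply 8 were lower (7 after quantile normalization), with a median of -0.16. The thymidylate enzymes TYMS and DTYMK were at -0.37 and -0.33, the ribonucleotide reductase subunit RRM2 at -0.32 and the guanine nucleotide enzyme GMPS at -0.20. SAMHD1, which breaks down deoxynucleotides, was the highest at 0.096.

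**Figure D4:**
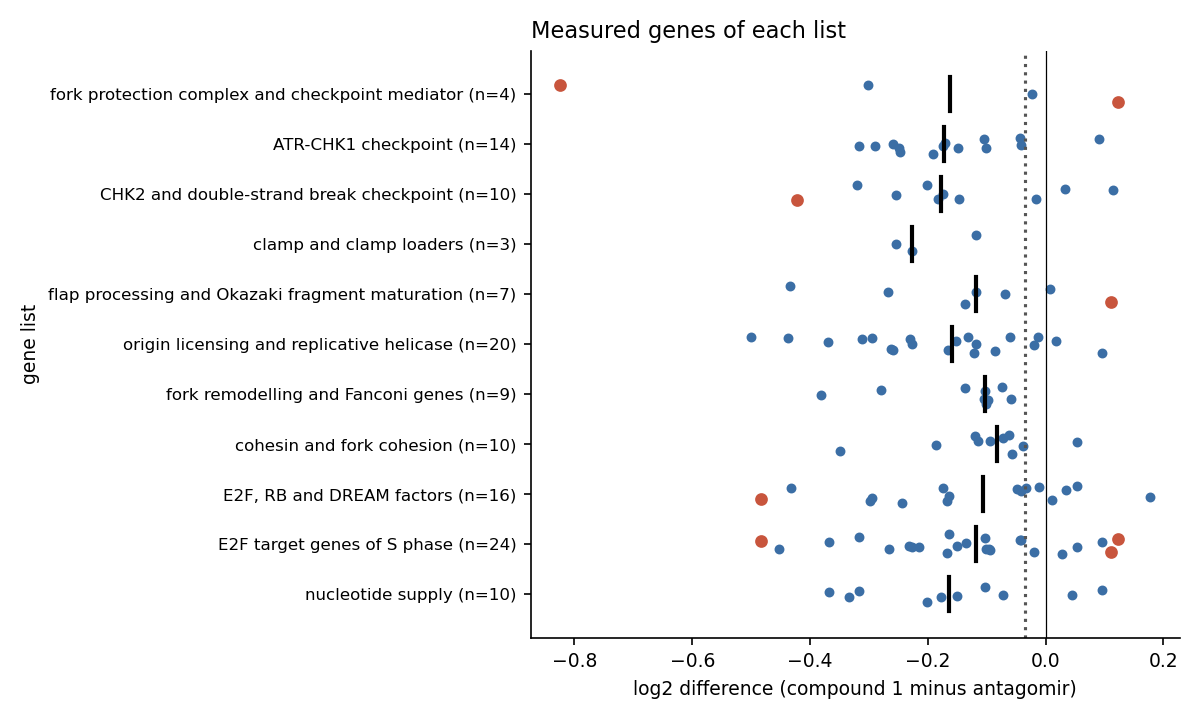
Log2 difference, compound 1 minus antagomir (x axis), of each measured gene (points; the 5 genes in red) in the 11 lists with measured genes (y axis, number measured in brackets), with the list median as a black bar and the median of all measured genes, -0.035, as a dotted line; vertical jitter has no meaning. Every list median lies to the left of the dotted line, and TIPIN at -0.82 lies far from the other points.

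The differences ran with level over all measured genes, from a median of 0.074 in decile 1 of level to -0.079 in decile 10, and the list genes had a median level of 8.69, against 7.41 for all measured genes. After quantile normalization the median of the 112 list genes was -0.073 and after cyclic loess -0.090, with all measured genes at 0.0048 and -0.0046. All 5 genes kept their direction under every alternative that gave a value. TIPIN ranged from -0.85 to -0.81, CHEK2 from -0.45 to -0.41, E2F8 from -0.51 to -0.41, CLSPN from 0.093 to 0.19 and FEN1 from 0.081 to 0.17. With entry at the 75th percentile CHEK2 was no longer measured. Since each gene has 1 entering cluster, only the scalings could move these values.

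Promoters of the fork and checkpoint genes shared the E2F letters more often than others. Of 93 measured list genes with a promoter window 39 held a match (41.9%), compared with 6.11% of 7869 measured protein-coding genes; the lists hold known E2F targets by choice. Within the lists 35 of the 39 genes with a match were lower (89.7%) and 43 of the 54 without (79.6%). These shares were 74.4% and 64.8% under quantile normalization, and 82.1% and 63.0% under cyclic loess. The median difference was -0.13 with a match and -0.14 without, and the order of the medians turned under quantile normalization (-0.092 and -0.073) and cyclic loess (-0.092 and -0.087). TIPIN and CLSPN, which both hold a match, differed in direction.

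Mesenchymal markers of the line were read on both arrays, and the luminal markers were mixed. The mesenchymal markers AXL, MSN, VIM and CD44 were measured, with AXL at 12.78 and 12.77, and 0 of the 4 differed past 1.3-fold. The hormone receptor genes ESR1 (5.31 and 5.21) and PGR (4.77 on both) were too low to enter. Of the other luminal markers GATA3 (7.27 and 7.44) and EPCAM (6.91 and 7.05) were measured on both arrays and FOXA1 reached the entry level on the compound 1 array (5.41 and 5.66). The leukocyte marker LYZ and the endothelial marker PECAM1 were too low to enter, and VWF was just above it at 5.74 and 5.81. The mesenchymal marker CAV1, the luminal marker CDH1 and the further leukocyte and endothelial markers had no named cluster.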

How the data were processed

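RNA of MDA-MB-231 cells was labelled with biotin from 5 µg of total RNA and read on Affymetrix arrays, per the labels' protocols. The series title names another array model than the whole-transcript type to which the cluster identifiers belong. The identifiers were followed here, and the conflict was not resolved. The authors deposited 1 value per transcript cluster and array. The values range from 0.37 to 14.20 and were taken as log2 signal; for these deposited log2 values, no source used here gives the log base, background correction or normalization. The probe table names 1 gene for 16098 of the 53617 clusters, several for 0 and none for 37519. All 16098 matched the RefSeq table for GRCh38.p14, used for names, gene types and neighbours.

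A cluster entered when its higher value reached the 50th percentile of mean levels (5.60), and the entering cluster with the highest mean stood for its gene. Differences are compound 1 minus antagomir, and a difference past 1.3-fold (0.38 on the log2 scale) was counted. With 1 array per treatment no test was run, and the number of arrays limits the precision. The 5 genes and the lists were chosen with earlier results of these data known. Named were the 5 genes, the list genes past 1.3-fold or otherwise the 4 largest, the highest of each list, the 3 nearest genes and the neighbours; exceptions are marked. Genes such as RNF8, the RFC, ORC and RPA families and the listed FANC genes had no named cluster. Counting was tested on simulated data. The alternatives were 3 scalings, 3 filters, 2 cluster choices, other folds (1.2, 1.5 and 2) and lists without the members. Python 3.11.15, numpy 2.4.6, pandas 2.3.3, matplotlib 3.10.9, R 4.3.3 and limma 3.58.1 were used.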

Additional observations from a re-analysis of the deposited data

How the results depend on the processing

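The 5 genes kept direction and their side of 1.3-fold in every alternative that gave a value, and moved by less than 1 robust SD of genes at a like level. With entry at the 75th percentile CHEK2 gave none. List medians stayed below 0, and 0 list genes were higher past any fold tried. A list median counted as moved past the robust SD of all genes divided by the root of its number of genes. After quantile normalization the medians were -0.10 for the ATR and CHK1 list, -0.11 for the CHK2 list, -0.065 for E2F targets, -0.038 for E2F, RB and DREAM factors, -0.019 for cohesin, -0.049 for flap processing, -0.094 for origin licensing and -0.073 for all lists. After cyclic loess they were -0.12, -0.11, -0.071, -0.041 and -0.019 in the same order, with origin licensing at -0.11 and all lists at -0.090. After centring all lists were at -0.17. The E2F, RB and DREAM median was -0.045 with entry at the 75th percentile and -0.049 without E2F8.

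The counts depended on the fold. At 1.2-fold 25 different list genes were lower. In the counts by list that follow, a gene shared by lists is counted in each. They were 2 in the ATR and CHK1 list, 2 in the CHK2 list, 5 E2F targets and 4 E2F, RB and DREAM factors. The others were 1 cohesin gene, 2 in flap processing, 2 in fork protection, 2 in fork remodelling, 3 in nucleotide supply and 5 in origin licensing. At 1.5-fold 1 was lower, TIPIN, and at 2-fold 0. Of all measured genes 1032 were lower and 675 higher at 1.2-fold, 60 and 34 at 1.5-fold, and 3 and 3 at 2-fold. At 1.3-fold 583 were lower and 725 higher without a filter, 180 and 51 under the stricter entry at the 75th percentile, and 149 were higher with both arrays at the entry level. After quantile normalization and after cyclic loess the flap processing and fork remodelling lists had 0 genes lower past 1.3-fold, and after quantile normalization 1 E2F, RB and DREAM factor remained lower past it. After centring nucleotide supply had 1. Without the members the fork protection and CHK2 lists had 0, and the E2F target and the E2F, RB and DREAM lists 1 each. No paired analysis was possible because there is 1 array per group. At low signal differences spread more widely.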

Other observations

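Outside the 12 lists, measured protein-coding genes with an E2F match in their promoter window were lower on the compound 1 array more often than those without. Of 442 with a match 307 were lower (69.5%), median -0.079, and of 7334 without a match 4372 were lower (59.6%), median -0.044. After quantile normalization 55.4% and 50.2% were lower, with medians of -0.018 and -0.00088, and after cyclic loess 58.1% and 52.1%, with medians of -0.025 and -0.0090. The same held for other letters searched. For the CHR element (TTTGAA or TTCGAA, both strands) 64.1% of genes with a match and 59.5% without were lower. These shares were 55.5% and 49.6% with quantile normalization applied, and 58.1% and 51.4% with cyclic loess. For CCAAT they were 61.9% and 58.9% (52.4% and 49.1% under quantile normalization, 54.3% and 51.1% under cyclic loess). In the deposited values the E2F shares lay furthest apart, but under both scalings those of CHR lay slightly further apart. Genes holding more than 1 of these motifs were not separated, so whether the pattern is particular to E2F was not tested. Genes with an E2F match were also read at a higher level (median 8.04 against 7.62), and differences ran with level on these arrays. This comparison was added after the values were seen. The part of level in this comparison was not tested, and genes are not independent replicates.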
